A study of Mus musculus with 6 samples.

Results

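Molecular chaperones bind unfolded or partly folded proteins and help them to fold, assemble, cross membranes or be degraded. The genes described here are the heat shock proteins and chaperones of the mouse medial ganglionic eminence (MGE), the ventral forebrain region in which many cortical interneurons are born. They were taken from a table of 17794 genes by symbol (the Hspa, Hspb, Hspd, Hspe, Hsph, Hsp90, Dnaja, Dnajb, Dnajc, Cct, Tcp1 and Bag families) with a minimum mean of 50 reads per library. Of 79 matching genes 70 passed this minimum. Just inside it were Hspb8 with a mean of 50.5 reads and Dnaja4 with 69.8, and just outside were Hspa1b with 49.8 and Dnajc25 with 49.5. The other 7 genes left out were Hspa1a, Hspa1l, Hspb1, Dnajb3, Dnajb13, Dnajc22 and Dnajc28. All 70 members also passed the expression filter of the test.

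RNA was sequenced from MGEs of E13.5 embryos in 2 groups of 3 libraries, each library made from a pool of MGEs of 3 embryos. The double mutants (dmut) were Rac1 fl/fl and Rac3-/-, and the controls were Rac1+/+ and Rac3+/+. Both groups carried the Nkx2.1Tg(Cre) transgene and a heterozygous R26R-YFP reporter, so Cre was present in the controls too. This Cre acts in cells with Nkx2-1 promoter activity, whereas Rac3 was missing in the whole embryo, and spread between single embryos is not visible in pools. Rac1 and Rac3 are small GTPases that control the actin cytoskeleton.

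The dmut libraries held 30363369, 29999684 and 26766556 total gene reads and the control libraries 33647854, 34612095 and 31881697. Rac3 had 16, 0 and 0 reads in dmut, against 728, 647 and 532 in control (edgeR adjusted p = 0.0413). Rac1 was at 248 ± 26.0 CPM (total gene reads scaled by TMM factors to a common library total) in dmut and 272 ± 2.77 CPM in control (SD, n = 3 each, edgeR adjusted p = 0.525); a floxed gene keeps exons outside the deleted part, so this count is a weak check. The 10 MGE marker genes were all measured, with summed levels of 1826 to 2253 CPM in dmut and 1665 to 1870 CPM in control. Summed immediate early genes, a sign of handling, stood at 309 to 356 CPM in dmut and 216 to 250 CPM in control. Jund alone averaged 191 CPM in dmut and 124 CPM in control. Of the 10 immediate early genes 7 had log2 folds above 0 (47.3% of all genes). Nr4a1, Fos and Klf4 lay below 0, at -0.97, -0.41 and -0.40. The 10 microglial markers summed to 97.3 to 125 CPM in dmut and 74.8 to 91.6 CPM in control. Neither sum overlapped between the groups, and edgeR called no gene of either list. Cortical excitatory markers summed to 32.1 to 137 CPM in dmut and 57.0 to 89.7 CPM in control, those of the septum, preoptic area and diencephalon to 116 to 455 CPM in dmut and 170 to 430 CPM in control, and in both lists dmut 2 was the highest of its group. Erythroid genes summed to 9744 to 35421 CPM in dmut and 11781 to 20376 CPM in control, with dmut 1 apart at the upper end, and endothelial markers to 179 to 219 CPM in dmut and 176 to 193 CPM in control. Without dmut 2, 55 of the 70 members had a log2 fold above 0, against 54 with it, and without dmut 1 also 55. The part of these markers in the results was not tested.

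Chaperones fall into systems that divide the work. Hsp70 proteins (Hspa genes) bind short hydrophobic stretches in cycles of ATP hydrolysis, J-domain proteins (Dnaj genes) bring them substrates and trigger the hydrolysis, and Bag proteins and Hsp110 proteins release the nucleotide. Hsp90 acts later on kinases and receptors, small heat shock proteins (Hspb genes) hold unfolded chains, and the ring-shaped chaperonin CCT folds actin and tubulin. The endoplasmic reticulum (ER) and the mitochondrion have sets of their own. Heat shock factor 1 (Hsf1) raises the inducible genes of the cytosol, and the unfolded protein response raises those of the ER.

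Among the 70 members Hspa8, the constitutive Hsp70 of the cytosol, was the one gene called, and it rose 1.99-fold in dmut. The 8 subunits of CCT were each higher in dmut by a similar amount, with a median log2 fold of 0.42, but none passed the test after adjustment. The heat inducible genes were split, with 3 log2 folds above 0 and 3 below. Of those below, Hspb8 and Dnaja4 had means of 50.5 and 69.8 reads, near the minimum of 50. The ER genes had a median of 0.04, with members on both sides of 0. The inducible genes Hspa1a, Hspa1b and Hspb1 were below the minimum of 50 mean reads.

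At an adjusted p of 0.05, edgeR's quasi-likelihood test called 1 of 70 members, against 77 of the 15960 genes tested (0.482%), 26 of them higher in dmut (0.163%). At an unadjusted p of 0.05 the members numbered 23 higher and 6 lower in dmut, against 11.1% of all genes higher and 10.1% lower. The libraries of the groups did not overlap in 24 members that were higher in dmut (34.3%) and 6 that were lower (8.57%), beside 13.6% and 14.9% of all genes. Log2 folds were above 0 in 54 of 70 members and in 47.3% of all genes. The median log2 fold was 0.20 over the members and -0.02 over all genes. DESeq2, which called 10.2% of its genes, called 22 members, 18 of them higher in dmut (5.76% of genes), and limma-voom, which called 0.796% of genes and 0.288% as higher, called Hspa8 alone.

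These directions depend on how libraries are scaled. The main values use TMM factors, which were 0.909 to 0.979 in dmut and 1.05 to 1.08 in control. With library size alone the log2 fold of the median gene shifts by -0.20, and 34 of 70 members lie above 0 with a median of -0.0045. Relative to the median gene the members stood at 0.22 under both scalings. Under library size alone the CCT median was 0.21 with 8 of 8 subunits above 0, and those of the constitutive, heat inducible and ER groups were -0.07, -0.08 and -0.16. The median over all genes was -0.23 under that scaling, below each of these.

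**Figure D1:**
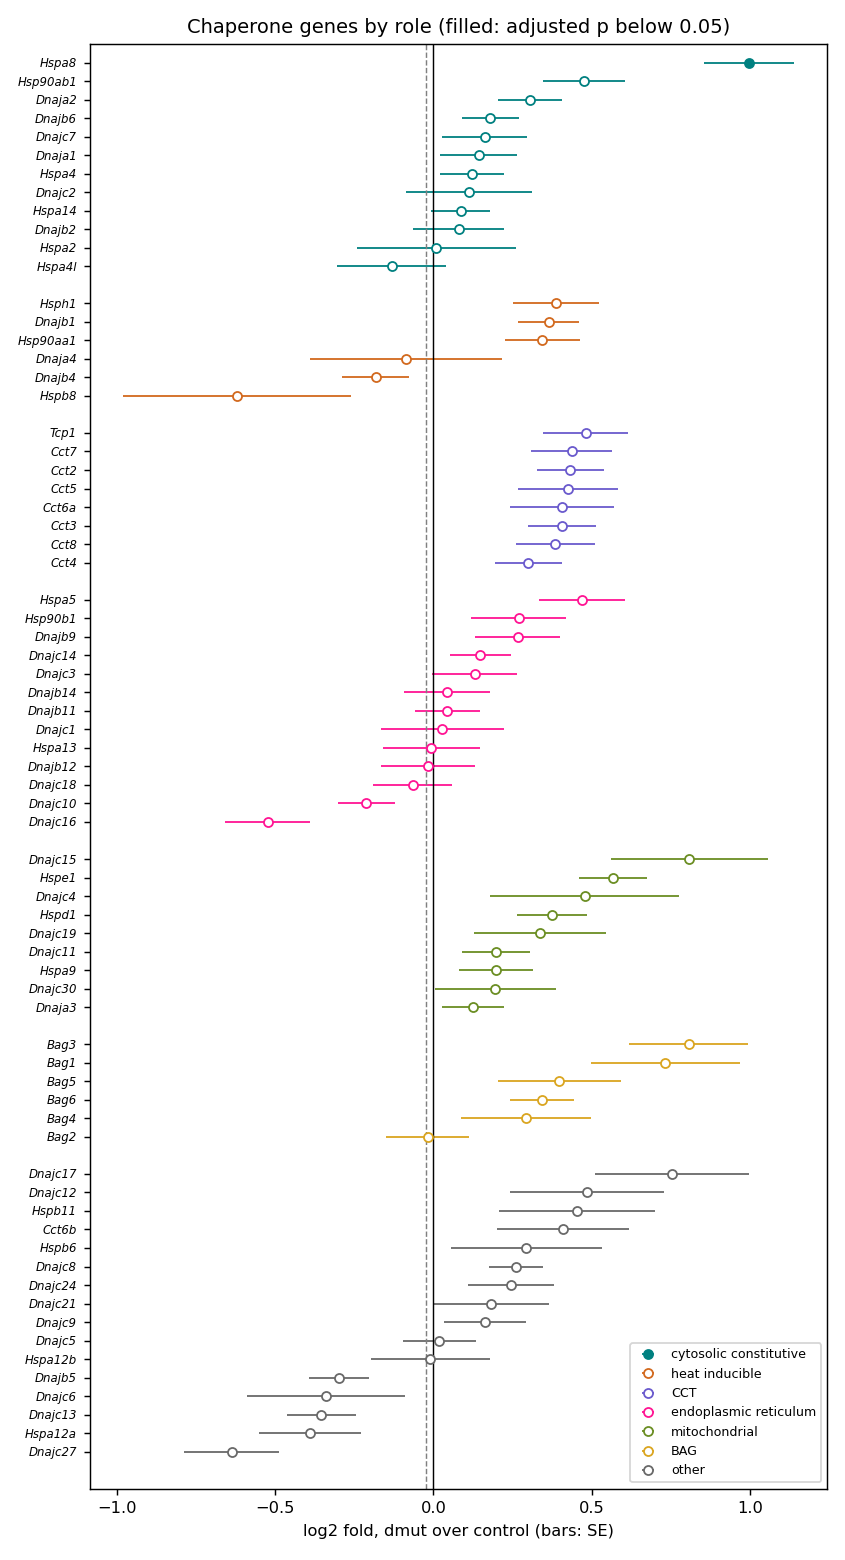
Log2 fold of dmut over control for each of the 70 chaperone genes, grouped by role, with bars for the standard error. The solid line marks 0 and the dashed line the median of all genes tested, -0.02; Hspa8 at 0.99 is the one filled point.

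Hspa8, also called Hsc70, is made in unstressed cells, where it folds new chains, uncoats clathrin vesicles and delivers proteins to lysosomes. It lies on chromosome 9 at 40800984 to 40805200 (GRCm38). Its total gene reads numbered 105035, 93444 and 79129 in dmut, against 53955, 67074 and 62918 in control. All 3 dmut libraries exceeded all 3 control libraries. Scaled levels were 3809, 3427 and 3019 CPM in dmut and 1479, 1793 and 1873 CPM in control. The means of 3418 ± 395 CPM in dmut and 1715 ± 208 CPM in control (SD, n = 3 each) gave a log2 fold of 0.99 ± 0.14 (SE, edgeR adjusted p = 0.0430). Hspa8 took 0.346%, 0.311% and 0.296% of all gene reads in dmut and 0.160%, 0.194% and 0.197% in control, so the groups were also apart before TMM scaling.

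Most reads counted for Hspa8 also matched elsewhere in the genome, so its count is uncertain. Unique reads made up 18.9%, 18.5% and 19.7% of its total in dmut and 12.8%, 16.7% and 15.5% in control. Counted by unique reads alone, Hspa8 stood at 790, 682 and 684 CPM of unique reads in dmut, against 240, 374 and 353 in control, and again the groups did not overlap. The log2 fold from unique reads was 1.34 (edgeR adjusted p = 0.0334). By the deposited RPKM, which scales reads to transcript length and library total, Hspa8 averaged 761 ± 62.7 in dmut and 441 ± 49.1 in control (SD, n = 3 each), a log2 fold of 0.79 on the log2(RPKM + 1) scale at an adjusted p of 0.0867 in limma. The authors' deposited table gave a fold change of 1.93 for Hspa8 at an adjusted p of 1.96e-05, and no other member was below 0.05 there, in a table with 0.871% of its genes below that value, 0.809% as higher in dmut.

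The direction of Hspa8 was the same in all 16 alternative fits, with log2 folds from 0.79 to 1.34, and the call held in 9 of them. It was lost without dmut 1 (adjusted p = 0.0789), dmut 3 (0.0691), control 1 (0.218), control 2 (0.240) or control 3 (0.190), and with the title date as a block (0.364). The titles carry 3 dates. On 29 March, with 2 dmut and 1 control library, the log2 ratio for Hspa8 was 1.01, and on 4 May, with 1 library of each, it was 0.69; 23 March holds 1 control library only.

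**Figure D2:**
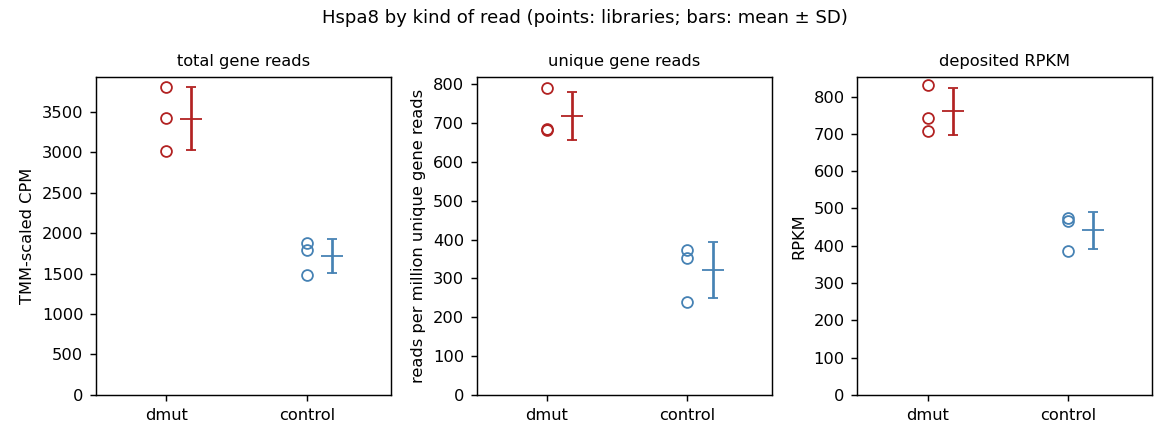
Hspa8 in each library by total gene reads (TMM-scaled CPM), by CPM of unique gene reads and by deposited RPKM, with points for libraries and bars for mean ± SD. The dmut libraries lie above the control libraries in all panels, 3019 to 3809 CPM against 1479 to 1873 CPM in the first.

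The cytosolic partners of Hspa8 differed less. Hsp90ab1, the constitutive Hsp90, stood at 3379, 2821 and 3032 CPM in dmut and 1976, 2228 and 2438 CPM in control. The groups did not overlap, but the log2 fold of 0.47 ± 0.13 had an edgeR adjusted p of 0.101. By RPKM the ratio of Hspa8 to Hsp90ab1 was 0.814, 0.877 and 0.719 in dmut, against 0.541, 0.581 and 0.555 in control, and the ranges were apart. This ratio does not depend on the scaling between libraries. Dnaja2, a J-domain partner of Hspa8, was at 201, 220 and 183 CPM in dmut and 155, 162 and 172 CPM in control (log2 fold 0.31, adjusted p = 0.146). Dnaja1, a close relative of Dnaja2, was at 221, 296 and 255 CPM in dmut and 223, 239 and 237 CPM in control, and the groups overlapped. The Hsp110 gene Hspa4 overlapped as well (log2 fold 0.12, adjusted p = 0.555), and its relative Hspa4l had the lowest log2 fold of the 12 constitutive genes, -0.13. Dnajb6, which keeps aggregation-prone proteins soluble, did not overlap by total reads with a log2 fold of 0.18, but 28.1% of its reads were unique and the log2 fold from those was -0.05. In this group 11 of 12 log2 folds were above 0, but 3 of 12 with library size alone, where the median of all genes was -0.23. Those with an unadjusted p under 0.05 were 3 of 12, near the 21.3% of all genes.

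By RPKM, Hsp90ab1 was the most abundant member with 951 ± 90.8 RPKM in dmut and 789 ± 72.1 in control. Hspa8 came next in both groups. Hsp90aa1 followed with 349 ± 28.3 RPKM in dmut and 318 ± 19.9 in control, then Cct2 with 214 ± 9.70 in dmut and 182 ± 12.7 in control, and Cct7 with 187 ± 8.96 in dmut and 158 ± 20.4 in control (SD, n = 3 each). The control values of Cct2 and Cct7 lie within their spread of each other. This order depends on the length used for each gene. By mean CPM, which uses none, Hspa8 was above Hsp90ab1 in dmut (3418 against 3077) and below it in control (1715 against 2214). Summed over the members, chaperones took 1.63%, 1.49% and 1.54% of all gene reads in dmut and 1.22%, 1.35% and 1.38% in control. Hspa8 alone held 21.2%, 20.9% and 19.2% of those chaperone reads in dmut, against 13.1%, 14.4% and 14.3% in control. Without Hspa8 the summed level was 14171, 12990 and 12740 CPM in dmut and 9791, 10665 and 11189 CPM in control.

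**Figure D3:**
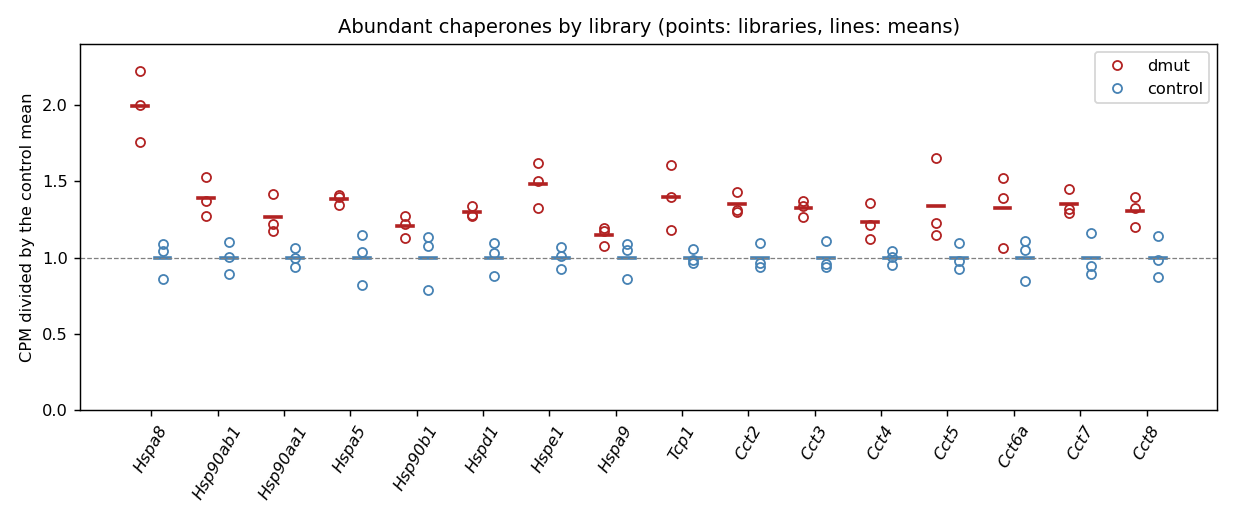
CPM of 16 abundant chaperones in each library, divided by the control mean of the gene; points are libraries and short lines group means. The Hspa8 points of dmut stand apart from control furthest, and the groups overlap for Hsp90b1, Hspa9 and Cct6a.

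CCT (also TRiC) is a double ring of 8 different subunits, and each ring holds 1 of each. Its genes lie on 8 different chromosomes. Tcp1, which encodes the alpha subunit, was at 667, 578 and 489 CPM in dmut and 407, 399 and 438 CPM in control. Every dmut library was above every control library for Tcp1, with a log2 fold of 0.48 ± 0.13 (SE) at an edgeR adjusted p of 0.108. Cct2, the beta subunit, was at 484, 444 and 439 CPM in dmut and 326, 317 and 371 CPM in control, again without overlap; its log2 fold of 0.43 ± 0.11 had the smallest adjusted p of the 8, 0.0903. Cct5, the epsilon subunit, was at 564, 420 and 392 CPM in dmut and 335, 317 and 374 CPM in control, with dmut 1 well above the rest; its log2 fold was 0.42, and 0.25 without dmut 1. Cct6a, the zeta subunit, was the one subunit whose groups overlapped, with 299, 327 and 228 CPM in dmut and 181, 225 and 238 CPM in control.

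The other 4 subunits kept the same direction without overlap. The groups were thus apart in 7 of 8 subunits as higher in dmut, beside 13.6% of all genes. Cct7 (eta) had a log2 fold of 0.44, Cct3 (gamma) 0.40, Cct8 (theta) 0.39 and Cct4 (delta) 0.30. The 8 log2 folds thus ranged from 0.30 to 0.48 and their standard errors from 0.11 to 0.16, so the span of the folds was of the size of a standard error. Adjusted p ran from 0.0903 to 0.210, and 8 of 8 had an unadjusted p under 0.05, against 11.1% of all genes higher in dmut. DESeq2 called 6 of the 8, all as higher in dmut, beside 5.76% of its genes called as higher. All 8 stayed above 0 in each of the 16 alternative fits, where their median lay between 0.21 and 0.49. Cct6b, a form of the zeta subunit known from testis, averaged 6.37 CPM in dmut and 4.80 CPM in control (log2 fold 0.41) and counts among the other members.

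The median CCT level relative to the control mean was 0.50, 0.40 and 0.25 (log2) in dmut 1, 2 and 3, against -0.08, -0.06 and 0.14 in control 1, 2 and 3. The gap between dmut 3 and control 3 was the narrowest of those between the groups. These are the libraries of 4 May, where the median log2 ratio was 0.13 with 7 of 8 subunits above 0. On 29 March it was 0.52 with 8 of 8 above 0. Over all members, 52 of 70 lay above 0 on 29 March and 51 of 70 on 4 May, with medians of 0.19 and 0.14 beside -0.01 and -0.02 for all genes.

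Prefoldin hands unfolded actin and tubulin to CCT. Of 13 genes for prefoldin subunits and other CCT partners none was called, 12 log2 folds were above 0 (47.3% of all genes), and the median was 0.35; with library size alone 10 were above 0 and the median was 0.15. At an unadjusted p of 0.05, 8 genes were higher and 1 lower, beside 11.1% and 10.1% of all genes. Pfdn2 was at 80.9, 77.4 and 78.4 CPM in dmut and 63.9, 48.6 and 49.7 CPM in control (log2 fold 0.55 ± 0.12, edgeR adjusted p = 0.0827). Pfdn5 was at 196, 110 and 175 CPM in dmut and 90.4, 77.1 and 93.0 CPM in control (log2 fold 0.89 ± 0.21, adjusted p = 0.0872). Neither gene overlapped between the groups, but both were named for the smallest p of the list. Over the 13 genes the groups were apart in 61.5% as higher and 7.69% as lower, beside 13.6% and 14.9% of all genes.

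**Figure D4:**
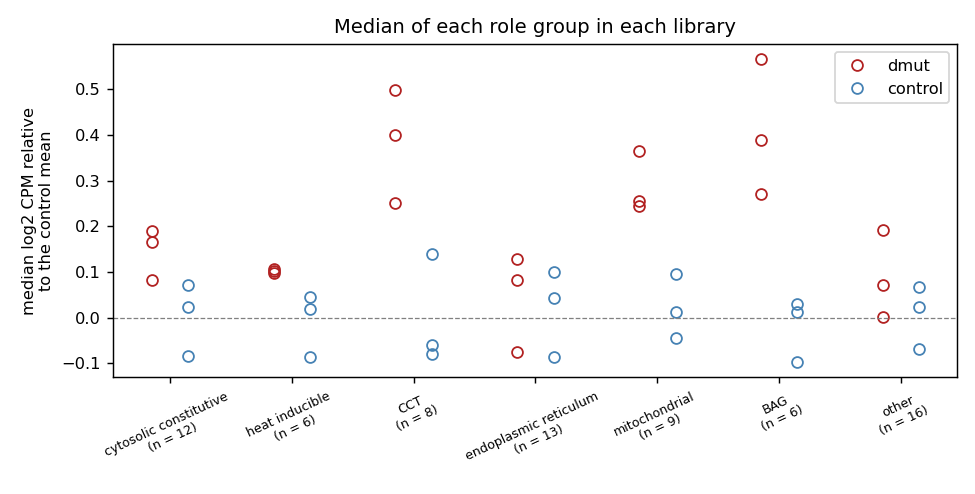
Median log2 CPM of each role group in each library, relative to the mean of the control libraries for each gene; n is the number of genes in the group. The CCT points of dmut lie at 0.25 to 0.50 and those of control at -0.08 to 0.14, whereas the ER medians of the groups overlap, unlike the summed ER level of 1157 to 1235 CPM in dmut and 907 to 1134 CPM in control.

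The heat inducible genes of the cytosol did not all move in the same direction. Their summed level was 1654 to 1956 CPM in dmut and 1325 to 1493 CPM in control, without overlap. Hsp90aa1 made up most of that sum. Hsp90aa1, the inducible Hsp90, was at 1652, 1421 and 1370 CPM in dmut and 1097, 1239 and 1166 CPM in control (log2 fold 0.34 ± 0.12, edgeR adjusted p = 0.159), with 38.9% of its reads unique and a log2 fold of 0.22 from those (adjusted p = 0.318). Hsph1, the inducible Hsp110, was at 196, 238 and 189 CPM in dmut and 136, 165 and 175 CPM in control (0.39 ± 0.14, adjusted p = 0.162). Dnajb1, the J-domain partner of inducible Hsp70, was at 85.0, 83.0 and 72.9 CPM in dmut and 66.0, 60.1 and 61.2 CPM in control (0.36 ± 0.10, adjusted p = 0.0987). All 3 genes were higher in every dmut library than in any control library. Over the 6 heat inducible genes the groups were apart in 3 as higher and 1 as lower, beside 13.6% and 14.9% of all genes. The log2 folds of Dnajb4 and Dnaja4 were -0.18 and -0.09, with overlapping groups. Hspb8, a small heat shock protein that works with Bag3 in selective autophagy, had 42, 27 and 31 reads in dmut and 60, 70 and 73 in control, a log2 fold of -0.62 ± 0.36 at an adjusted p of 0.378, although the groups did not overlap.

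The genes best known for strong induction by heat had few reads. Hspa1a had 0, 14 and 11 reads in dmut and 0, 13 and 30 in control, where a listed 0 stands for at most 9 reads. Hspa1b had 61, 61 and 52 reads in dmut and 30, 52 and 43 in control, and as CPM the groups did not overlap; its near-identical neighbour Hspa1a makes both counts uncertain, and 50.2% of the Hspa1b reads were unique. The Hspa1b log2 fold was 0.88 (edgeR adjusted p = 0.212), and 0.50 from unique reads. Hspb1 had 0, 20 and 27 reads in dmut and 0, 21 and 15 in control. By RPKM, Hspa1b averaged 0.708 in dmut and 0.444 in control, beside 761 in dmut and 441 in control for Hspa8. Hsf1 was at 26.9 ± 1.16 CPM in dmut and 27.3 ± 4.97 CPM in control (SD, n = 3 each, log2 fold -0.03), and Hsf2 had a log2 fold of -0.23 (adjusted p = 0.319).

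Of 24 tested heat shock factors and co-chaperones outside the named families none was called, and 20 log2 folds were above 0 (47.3% of all genes) with a median of 0.21. With library size alone 13 were above 0 and the median was 0.0030. At an unadjusted p of 0.05, 9 were higher and 1 lower, beside 11.1% and 10.1% of all genes. Cacybp, which links Hsp90 clients to a ubiquitin ligase, was at 136, 138 and 129 CPM in dmut and 105, 103 and 104 CPM in control (log2 fold 0.36 ± 0.08, edgeR adjusted p = 0.0806). Hsbp1, which binds the trimer of Hsf1, was at 133, 124 and 149 CPM in dmut and 98.7, 82.8 and 105 CPM in control (0.51 ± 0.12, adjusted p = 0.0879). Stip1, the adaptor that passes clients from Hsp70 to Hsp90, had a log2 fold of 0.52 (adjusted p = 0.108). The groups were apart for each of these 3 genes, which were picked by small p or once their values had been seen. Over the list of 24 the groups were apart in 45.8% as higher and 8.33% as lower, beside 13.6% and 14.9% of all genes.

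The ER and the mitochondrion keep chaperones whose promoters carry known control elements. Promoter sequences were read from RefSeq (GRCm38.p6) for the 57 members with an entry. Members without an entry, among them Hspa8, Hsp90aa1, Hsp90ab1 and CCT genes, were not searched for either element. A heat shock element written as GAANNTTCNNGAA (TTCNNGAANNTTC on the other strand) stood in 198 of 32851 promoter windows, 250 bases before to 50 after the start (0.603%). It was found in 6 of 77 windows of members, those of Hspd1, Hspe1, Hsph1 and Dnajb6, and the Hsph1 match lies after the start. These windows are not separate sites. Both windows of Dnajb6 hold the same site, so do both of Hsph1, and Hspd1 and Hspe1 share a stretch. The ER stress response element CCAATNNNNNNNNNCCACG (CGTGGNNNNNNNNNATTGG on the other strand) stood in 39 windows (0.119%), among them those of Hspa5, Hsp90b1 and Dnajc3. The 250 bases before the start of these 3 ER genes and of Hspe1 are shown 5′ to 3′ on the strand of the gene, with matches in capitals, because they let the sequence be read beside the folds of genes that carry the same element. No window of a member held both motifs; a match is a description of the letters only.
Hspe1, chr1:55087898-55088147 (+): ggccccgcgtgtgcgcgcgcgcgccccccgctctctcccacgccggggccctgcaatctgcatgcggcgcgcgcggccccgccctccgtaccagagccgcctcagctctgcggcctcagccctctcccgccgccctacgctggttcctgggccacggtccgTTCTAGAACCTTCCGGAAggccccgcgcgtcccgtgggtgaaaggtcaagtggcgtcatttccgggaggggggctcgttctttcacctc
Hspa5, chr2:34771840-34772089 (+): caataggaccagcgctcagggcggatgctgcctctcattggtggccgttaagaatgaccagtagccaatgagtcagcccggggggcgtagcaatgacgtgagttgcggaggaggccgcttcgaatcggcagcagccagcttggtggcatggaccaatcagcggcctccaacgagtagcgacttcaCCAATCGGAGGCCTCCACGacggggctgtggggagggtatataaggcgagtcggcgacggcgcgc
Hsp90b1, chr10:86705445-86705694 (-): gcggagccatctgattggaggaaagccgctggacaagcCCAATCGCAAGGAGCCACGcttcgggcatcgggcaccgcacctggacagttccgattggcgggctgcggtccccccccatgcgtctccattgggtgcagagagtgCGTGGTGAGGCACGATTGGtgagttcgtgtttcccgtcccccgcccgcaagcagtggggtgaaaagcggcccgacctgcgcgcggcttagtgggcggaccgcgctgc
Dnajc3, chr14:118937682-118937931 (+): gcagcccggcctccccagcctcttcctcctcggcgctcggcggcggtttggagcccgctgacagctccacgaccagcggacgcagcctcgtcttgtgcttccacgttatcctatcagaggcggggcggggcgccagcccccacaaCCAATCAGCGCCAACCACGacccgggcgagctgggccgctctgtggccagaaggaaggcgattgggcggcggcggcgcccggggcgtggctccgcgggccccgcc

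In Hspe1 a pair of overlapping heat shock elements begins 89 bases before the start. The Hspd1 window on the opposite strand overlaps this one, and holds the same stretch from 144 bases before its own start. The ER element begins 65 bases before the start in Hspa5 and 105 in Dnajc3. Hsp90b1 carries 2 matches, 1 on each strand, the farther one from 212 bases before the start.

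The ER genes with the element differed in size of fold. Hspa5 (BiP), the Hsp70 of the ER lumen, was at 363, 381 and 377 CPM in dmut and 221, 280 and 310 CPM in control. The groups did not overlap, and the log2 fold was 0.47 ± 0.14 (SE, edgeR adjusted p = 0.114). Hsp90b1 (Grp94), the Hsp90 of the ER, was at 344, 389 and 373 CPM in dmut and 241, 347 and 330 CPM in control, with overlap at control 2 (log2 fold 0.27, adjusted p = 0.362). Dnajc3, an inhibitor of the kinase PERK and a J-domain protein of the lumen, was at 34.3, 35.9 and 31.9 CPM in dmut and 26.0, 31.6 and 35.7 CPM in control, and also overlapped (log2 fold 0.13).

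Summed over the 13 ER genes, levels were 1157, 1235 and 1229 CPM in dmut and 907, 1103 and 1134 CPM in control, and these sums did not overlap. Log2 folds were nevertheless below 0 in 5 of the 13. With library size alone, where the median of all genes was -0.23, 3 of 13 were above 0. Dnajc16 was at 15.7, 20.6 and 18.6 CPM in dmut and 24.1, 28.3 and 26.6 CPM in control, with a log2 fold of -0.52 ± 0.13 at an edgeR adjusted p of 0.0931. Dnajc10 (ERdj5), a reductase that removes disulphide bonds from proteins bound for degradation, was at 72.6, 82.8 and 77.6 CPM in dmut and 86.1, 90.5 and 93.5 CPM in control (log2 fold -0.21, adjusted p = 0.230). In both genes every dmut library was below every control library. Over the 13 ER genes the groups were apart in 1 as higher and 2 as lower, beside 13.6% and 14.9% of all genes. With library size alone the Dnajc16 value of -0.73 was called. Under that scaling 780 of 15960 genes were called, 52 of them higher in dmut.

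Among 24 other genes of ER folding and the unfolded protein response none was called and 17 log2 folds were above 0 (47.3% of all genes) with a median of 0.18, which with library size alone became 11 and -0.015. At an unadjusted p of 0.05, 8 were higher and 2 lower, beside 11.1% and 10.1% of all genes. Calr, the lectin chaperone calreticulin, was at 506, 611 and 552 CPM in dmut and 334, 338 and 370 CPM in control. Its log2 fold of 0.68 ± 0.11 had an edgeR adjusted p of 0.0596, without overlap between the groups. Ppib, a prolyl isomerase of the ER, had a log2 fold of 0.41 (adjusted p = 0.0846). Atf4, a transcription factor of the stress response, was at 102, 96.5 and 144 CPM in dmut and 195, 158 and 144 CPM in control (log2 fold -0.54, adjusted p = 0.155), and Xbp1, another, had a log2 fold of 0.43 (adjusted p = 0.127).

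All 9 mitochondrial members had log2 folds above 0, with a median of 0.34 (5 of 9 and 0.13 with library size alone). Hspe1 (Hsp10), the lid of the mitochondrial chaperonin, was at 130, 106 and 121 CPM in dmut and 85.9, 74.2 and 81.2 CPM in control. Without overlap and with a log2 fold of 0.57 ± 0.11 (SE), it had the second smallest adjusted p of the members, 0.0701. Hspd1 (Hsp60), which forms the chaperonin ring and shares the divergent promoter above, was at 338, 353 and 336 CPM in dmut and 231, 271 and 290 CPM in control. It did not overlap either (log2 fold 0.37 ± 0.11, edgeR adjusted p = 0.118). In the deposited table Hspd1 runs from 55077835 to 55088243 and Hspe1 from 55088132 to 55091307 on chromosome 1, so their ends overlap, and reads there cannot be assigned where counting ignores strand. Hspa9, the Hsp70 of the matrix, overlapped between the groups at a log2 fold of 0.20. Dnajc15, a J-domain protein of the import motor, was at 29.1, 15.2 and 20.0 CPM in dmut and 12.4, 10.1 and 14.2 CPM in control, with a log2 fold of 0.81 ± 0.25 at an adjusted p of 0.127, and 0.52 without dmut 1. Of 18 other genes of mitochondrial protein quality control 11 were above 0 (7 with library size alone, 47.3% of all genes with TMM) and none was called; Phb had the log2 fold of 0.73 and Spg7 that of -0.41, at adjusted p of 0.0862 and 0.0872.

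The Bag genes, nucleotide exchange factors of Hsp70, had a median log2 fold of 0.37 over 6 genes, and 0.17 with library size alone. Bag3, a stress-inducible member, was at 5.04, 5.06 and 5.07 CPM in dmut and 2.63, 3.15 and 2.89 CPM in control (log2 fold 0.81 ± 0.19, edgeR adjusted p = 0.0868). The dmut libraries hardly differed from each other, at 139, 138 and 133 reads, against 96, 118 and 97 reads in control. Bag1, which links Hsp70 to the proteasome, was at 163, 83.7 and 101 CPM in dmut and 73.4, 62.5 and 73.8 CPM in control (0.73 ± 0.24, adjusted p = 0.138), with dmut 1 far above the rest and a log2 fold of 0.40 without it. Bag6, which guards tail-anchored membrane proteins, was at 545, 479 and 475 CPM in dmut and 391, 407 and 384 CPM in control (0.34 ± 0.10, adjusted p = 0.120). The groups did not overlap for these 3 of the 6 genes, all higher in dmut, beside 13.6% of all genes apart as higher. Bag4 and Bag5 overlapped, and Bag2, which inhibits the ligase CHIP, was the one below 0 (-0.02); for Bag4 28.6% of reads were unique, and its log2 fold was 0.29 from total and 0.10 from unique reads.

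The remaining 16 members are mostly J-domain proteins with special tasks, and they went both ways. Dnajc27 (Rbj), a J-domain protein with a GTPase fold, was at 20.5, 16 and 19.1 CPM in dmut and 32.1, 30.2 and 24.0 CPM in control. It had the lowest log2 fold of all members, -0.64 ± 0.15, without overlap but at an edgeR adjusted p of 0.0877. Dnajc13 (RME-8), which acts in endosome sorting, was at 60.6, 61.0 and 72.2 CPM in dmut and 75.5, 87.4 and 84.7 CPM in control (-0.35 ± 0.11, adjusted p = 0.127), again without overlap. Dnajb5 and Hspa12a had log2 folds of -0.30 and -0.39. At the other end Dnajc17 stood at 38.3, 19.5 and 25.3 CPM in dmut and 17.8, 13.9 and 17.6 CPM in control (0.75 ± 0.24, adjusted p = 0.141), but its log2 fold was 0.30 from unique reads and 0.45 without dmut 1. Unique reads made up 47.1% of its total in dmut and 65.4% in control. Dnajc5 (cysteine string protein), which keeps synaptic vesicle release working, was at 0.02, and the histone chaperone Dnajc9 at 0.16, both with overlap.

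Fold moved with annotated exon length in these libraries. This length joins all annotated exons of a gene, so it can exceed that of the transcript present. The median log2 fold of all genes was 0.37 below 1500 bp of annotated exon length and -0.15 from 10000 bp up. The 5 members in the first class had a median of 0.57 and the 5 in the last 0.03. Across the 70 members the Spearman correlation of fold with exon length was -0.42, beside -0.27 across 15079 genes with a length; genes share the same 6 libraries and are not independent. Hspa8 and the CCT subunits lie between 2500 and 10000 bp, where the class medians of all genes were 0.03, -0.04 and -0.10. With each library's trend on length and GC content removed, the members' median was 0.23, that of CCT 0.37 and that of the ER group 0.17, and Hspa8 stayed called with a log2 fold of 1.02.

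**Figure D5:**
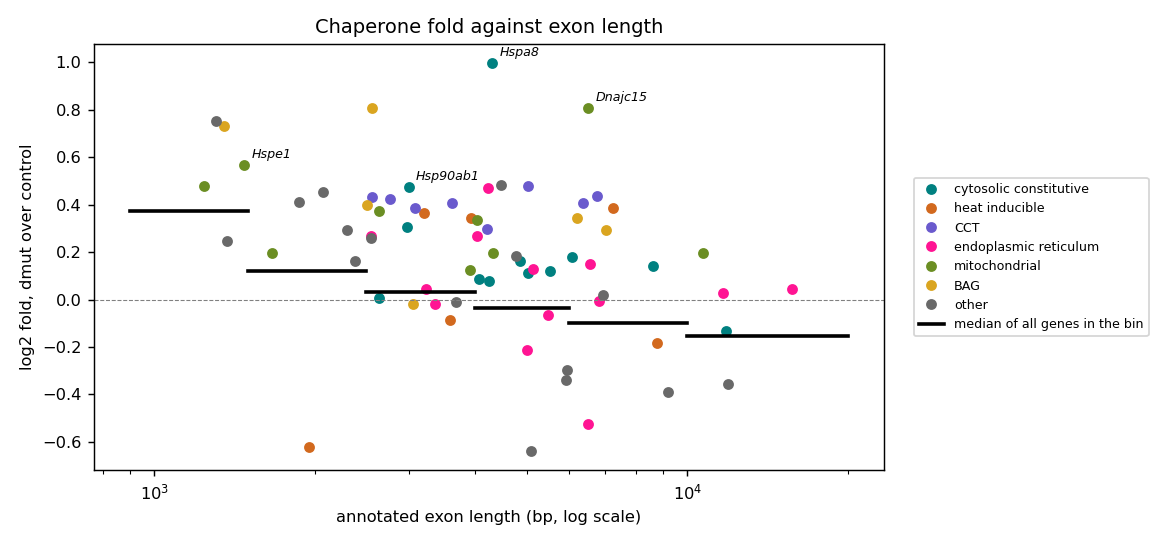
Log2 fold of dmut over control against annotated exon length (log scale) for the 70 chaperone genes, coloured by role; black lines are medians of all genes tested in 6 length classes. The lines fall to -0.15 in the longest class, and the CCT points lie at 0.30 to 0.48.

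In whole tissue, more RNA per cell and more cells of a type that expresses a gene cannot be told apart, and this holds for each difference above.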

How the data were processed

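Poly(A) RNA of 6 pools of MGEs was made into Ion Torrent libraries, per the labels' protocols. The authors deposited, per gene, total and unique gene reads as whole-number counts, and RPKM, with no value between 1 and 9 total reads. Their table also holds a p-value and a signed fold change (stored here as a score) from a test named EDGE, per the file headers. The build is GRCm38 (mm10), per the submitters' processing notes; the aligner is not given in the sources used here.

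Genes were tested with edgeR 4.0.16 in R 4.3.3 (quasi-likelihood, TMM, standard expression filter, two-sided, Benjamini-Hochberg over 15960 genes) on total gene reads, 3 dmut against 3 control, without covariates, checked on simulated data. Alternatives were DESeq2 1.42.0, limma 3.58.1 (voom, and log2(RPKM + 1)), other scaling and filters, unique reads, blocks, removal of length and GC trends (GENCODE M21 lengths) and each library left out. Libraries within a group differed beyond counting error (chi-square over degrees of freedom, 25.9 to 141).

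Members and lists were chosen with earlier results of these data known. Named genes are the called members, the 4 of highest CPM and those of highest and lowest fold in each role, a set of core chaperones, and the 2 of smallest p in each related list. Dnaja2, Dnajb5, Dnajb6, Dnajc3, Dnaja4, Hspa12a, Cct6b, Stip1, Hsf1, Hsf2, Atf4 and Xbp1 are named outside it, picked once their values had been looked at. So are the immediate early genes Jund, Nr4a1, Fos and Klf4. Hsf4 and Pfdn6 matched no gene in the table and were not analysed here.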

Additional observations from a re-analysis of the deposited data

How the results depend on the processing

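Over all genes the number called, 77 as reported, was 780 with library size alone, 1783 with DESeq2, 135 with genes of a mean of at least 50 reads, 127 with limma-voom, 49 with limma on log2(RPKM + 1), 45 with length and GC trends removed and 0 with the title date as a block. Of the 780 genes called with library size alone, 52 were higher in dmut. With the date block 2033 genes had an unadjusted p under 0.05 (12.7%), 13 of them members. Leaving out 1 library gave from 2 to 585 genes, 22 without dmut 1, 585 without dmut 2, 12 without dmut 3, and 2, 2 and 4 without control 1, 2 and 3. Members called, 1 as reported, were 3 with library size alone (Hspa8, Dnajc16 and Dnajc27), 22 with DESeq2, 0 with the date block, 0 with log2(RPKM + 1) (12 of 70 at an unadjusted p under 0.05, where 24.3% of all genes were), and from 0 to 2 with 1 library left out, the 2 being Hspa8 and Hspe1 without dmut 2. The members' median log2 fold, 0.20 as reported, was -0.0045 with library size alone, 0.036 with log2(RPKM + 1), 0.23 with length and GC trends removed, and 0.20 to 0.23 with 1 library left out. The cause of these shifts was not tested.

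With the replicate number as a block 227 genes were called, and 2 members, Hspa8 and Hspe1. Libraries of the same number deviated from their group means with correlations of 0.11, 0.123 and 0.015 for numbers 1, 2 and 3. For libraries of different numbers the correlations ran from -0.136 to 0.016, so numbers 1 and 2 stood above all of those. The labels do not say that the numbers pair the pools, and the main fit takes no pairing. Dmut 3 correlated no better with control 3 (0.015) than with control 1 (0.016).

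For the 54 named genes over 16 alternatives, 785 of 859 values kept direction and side of the threshold, 39 became called, 13 lost the call, and 22 uncalled values changed sign, 13 of them with library size alone or log2(RPKM + 1). No called value changed direction. Depth limits Hspa1a, Hspa1b, Hspb1, Hspb8 and Bag3, where 10 reads amount to 0.289 to 0.374 CPM before TMM scaling, and reads shared with other loci limit Hspa8, Hsp90aa1, Dnajb6 and Bag4, each with under 50% unique reads.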
